A study of Mus musculus with 62 samples.

Results

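The report concerns 7 mouse genes: Zcwpw1, Upb1, Sec14l3, Vmn2r1, Krt222, Abi3bp and Abhd11os. They were taken by symbol from the count table of a striatum study, as genes whose level was low in R6/2 mice and higher again after a repressor of mutant huntingtin, and they are 7 of 48795 genes in that table. All 7 were detected in every one of the 62 libraries and passed the filter on low counts in each fit. R6/2 mice carry a mutant huntingtin transgene, and zQ175 mice carry a mutant huntingtin knock-in allele. The study asked what happens to the striatum when a zinc-finger protein (ZFP) delivered by an adeno-associated virus represses the mutant gene in astrocytes (A viruses) or neurons (N viruses), against Delta control viruses.

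R6/2 A-ZFP, R6/2 A-Delta, NCAR A-ZFP, NCAR A-Delta, R6/2 N-ZFP, R6/2 N-Delta, NCAR N-ZFP and NCAR N-Delta were the bulk groups of the R6/2 series. Virus with the PHP.eB capsid was given at 4 weeks, and striatum was taken at 11 weeks. NCAR is not spelled out in the labels and is read here as mice without the transgene. The cell type label gives neuron for the N viruses, whereas the treatment text for the R6/2 series calls them astrocytic, and the cell type label was followed. zQ175 N-ZFP, zQ175 N-Delta, WT N-ZFP and WT N-Delta mice were injected into the striatum at 6 months and collected at 12 months. Each of these groups has libraries of bulk and of neuronal RNA. Bulk and neuronal libraries share replicate numbers, and no label used here says whether these mark the same animals, so the 2 kinds of RNA may not be independent. There were 4 libraries per group, but 3 for bulk RNA of WT N-ZFP and of R6/2 A-ZFP. No label states that libraries of a group came from separate animals, so the p-values measure the spread between libraries.

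Huntington's disease mouse models lose transcripts in the striatum, above all those of the projection neurons that make up most of its neurons. Mutant huntingtin is thought to act there largely through altered transcription. The 7 genes do not form a pathway. Zcwpw1 encodes a chromatin protein that reads methylated histones and is known for repair of meiotic DNA breaks in mouse testis. Upb1 encodes beta-ureidopropionase, the last enzyme in the breakdown of uracil and thymine, which releases beta-alanine. Sec14l3 belongs to the SEC14-like family of lipid-binding proteins, Vmn2r1 to the vomeronasal type 2 pheromone receptors, and Krt222 to the keratin family of intermediate filament proteins. Abi3bp encodes a secreted matrix protein named for binding the ABI adaptor ABI3, and Abhd11os is a noncoding transcript antisense to Abhd11 that is known to be enriched in mouse striatum.

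In mm10 with GENCODE M21 annotation, Zcwpw1 lies on the plus strand at chr5:137787798-137822621 and overlaps Pilra on the other strand. Upb1 spans chr10:75401115-75441679 on the plus strand and overlaps Gucd1 on the other. Sec14l3 is at chr11:4064841-4077736 (plus), Vmn2r1 at chr3:64081547-64109484 (plus), Krt222 at chr11:99232761-99244085 (minus) and Abi3bp at chr16:56477878-56690135 (plus). Abhd11os covers only 1140 bases at chr5:135012114-135013253 on the minus strand, overlaps the end of Abhd11 (chr5:135009152-135012175, plus strand), and is typed there as a transcribed unitary pseudogene. Whether counting used strand is not given in the sources used here, so reads of Abhd11os and Abhd11, of Zcwpw1 and Pilra, and of Upb1 and Gucd1 may not be fully separated.

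Promoter windows of RefSeq (GRCm38.p6, 250 bases before to 50 after a gene start) were on hand for 5 of the 7 genes, and 4 are shown because these genes mark the contrasts in the data described next. Abhd11os and Sec14l3 were low in both mouse models, Vmn2r1 in R6/2 mice, and Zcwpw1 is the gene that rose with N-ZFP in neuronal RNA of zQ175 mice. Each is written 5′ to 3′ on the gene's strand, and capitals mark GGGCGG (a GC box) or TGACG (the core of a cAMP response element) on either strand.
Abhd11os, chr5:135013108-135013407, minus: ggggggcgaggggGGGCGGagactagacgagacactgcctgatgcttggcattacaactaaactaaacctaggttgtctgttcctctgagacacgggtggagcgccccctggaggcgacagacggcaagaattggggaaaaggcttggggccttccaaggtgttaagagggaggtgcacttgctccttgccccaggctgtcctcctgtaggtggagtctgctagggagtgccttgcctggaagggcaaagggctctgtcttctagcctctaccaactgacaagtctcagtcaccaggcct
Sec14l3, chr11:4064603-4064902, plus: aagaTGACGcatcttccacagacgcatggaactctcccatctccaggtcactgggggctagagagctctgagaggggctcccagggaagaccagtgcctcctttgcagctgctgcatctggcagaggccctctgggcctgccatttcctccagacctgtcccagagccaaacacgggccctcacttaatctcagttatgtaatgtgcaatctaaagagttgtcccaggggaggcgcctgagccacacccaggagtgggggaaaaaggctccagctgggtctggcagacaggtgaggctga
Vmn2r1, chr3:64081392-64081691, plus: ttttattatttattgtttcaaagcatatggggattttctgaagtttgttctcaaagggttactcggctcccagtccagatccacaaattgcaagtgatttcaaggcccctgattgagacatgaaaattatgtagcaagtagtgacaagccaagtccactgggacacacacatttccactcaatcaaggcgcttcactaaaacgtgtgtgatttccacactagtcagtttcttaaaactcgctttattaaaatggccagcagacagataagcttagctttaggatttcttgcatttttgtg
Zcwpw1, chr5:137787552-137787851, plus: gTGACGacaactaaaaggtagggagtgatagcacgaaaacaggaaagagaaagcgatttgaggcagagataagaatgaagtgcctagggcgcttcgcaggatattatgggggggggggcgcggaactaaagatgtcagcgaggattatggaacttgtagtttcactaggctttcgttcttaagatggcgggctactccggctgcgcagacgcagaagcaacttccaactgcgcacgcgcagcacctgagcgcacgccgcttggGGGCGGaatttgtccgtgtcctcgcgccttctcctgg

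The windows shared no searched motif across the genes. TGACG occurred in the windows of Zcwpw1 and Sec14l3, against 20.8% of 32851 mouse promoter windows of the same length, and GGGCGG in those of Zcwpw1 and Abhd11os, against 35.7%. The AP-1 motif TGANTCA (7.81% of windows), the E-box CACGTG (7.15%), TATAAA (13.6%) and 4 CAG units in a row (0.368%) were in none of the windows of the 5 genes. Both strands were read and no hits overlapped. The second Zcwpw1 window, at an upstream start, also held both TGACG and GGGCGG. GC content was 39.3% for Vmn2r1 and 58.3% for both Abhd11os and Sec14l3, beside a median of 52.7% for all windows. The Upb1 window (56.7% GC) begins inside the GENCODE gene, downstream of that gene's annotated 5′ end.

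Levels are in CPM, a gene's share of all counts in its library scaled to a common total. Library totals were 49237583 to 101295189 counts in the R6/2 series, 8664055 to 11211827 in zQ175-series bulk and 4610476 to 12200813 in neuronal libraries. A count of 0 would allow up to 0.0609, 0.346 and 0.651 CPM in the shallowest library of each, for counting error only. Mouse Htt, whose counts separate neither the mutant allele nor the transgene, read 159 to 257 CPM in R6/2 N-ZFP against 222 to 277 in R6/2 N-Delta libraries, and 245 to 341 in zQ175 N-ZFP against 267 to 348 in zQ175 N-Delta neuronal libraries. In NCAR mice Htt differed in the direction opposite to R6/2, at 157 to 225 CPM with N-ZFP against 121 to 177 CPM with N-Delta. Its N-ZFP change was not called in the zQ175 series, at a log2 fold change of -0.07 ± 0.10 (SE; edgeR adjusted p = 0.67) in neuronal and 0.10 ± 0.08 (adjusted p = 0.96) in bulk libraries, so it is no check of the labels. Striatal projection neuron markers were present in all groups, and WT N-Delta neuronal libraries were lower than WT N-Delta bulk libraries in glial, vascular and fibroblast markers, with 19.5 to 23.4 against 431 to 575 CPM for the 10 microglial markers. Ependymal and choroid plexus markers were not lower, at 36.5 to 66.0 CPM in WT N-Delta neuronal against 27.7 to 48.6 CPM in WT N-Delta bulk libraries. Libraries 1 and 3 of both N-ZFP neuronal groups stood apart by mitochondrial share, with 2.51% and 4.31% in zQ175 and 0.801% and 1.05% in WT, against 0.167% to 0.466% in the other neuronal libraries.

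In R6/2 striatum all 7 genes were lower than in NCAR striatum under both Delta viruses, and all 7 were higher with N-ZFP than with N-Delta. The genes were chosen on these differences, so they are given as a description, with log2 fold changes from edgeR and no test. By edgeR calls at an adjusted p under 0.05, 15.3% of 21752 genes were lower in R6/2 with A-Delta, 28.4% with N-Delta, and 8.2% were higher with N-ZFP. These numbers of genes depend on the processing. The genes higher with N-ZFP numbered 1783, against 3342 without R6/2 N-ZFP library 4, 970 without R6/2 N-ZFP library 1 and 500 with only those groups fitted, and the genes lower with N-Delta numbered 6174, against 2566 with a transcript length index as covariate. The index is the correlation, over protein-coding genes, of a library's log2 level relative to the mean of the libraries with exon length, so it is positive where long genes read higher. It separated the N-Delta groups, at 0.166 to 0.288 in R6/2 against -0.425 to -0.228 in NCAR libraries, and ran from -0.301 to 0.36 in R6/2 N-ZFP libraries. With it as covariate the 7 genes had log2 fold changes of -5.47 to -1.28 for R6/2 over NCAR with N-Delta and 0.97 to 3.55 for N-ZFP over N-Delta in R6/2.

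The 7 genes were not the most extreme. Abhd11os ranked 14 by size of the A-Delta loss and 26 by the rise with N-ZFP, whereas Krt222 ranked 802 and 954 and Zcwpw1 1150 and 804. In all, 966 genes, a number that rests on the same calls, were called lower in both Delta comparisons and higher with N-ZFP. Of these, 81 were at least 4-fold lower in both and at least 2-fold higher, which takes in 5 of the 7 genes and leaves out Krt222 and Zcwpw1. Ranked by the rise, the first others were Gm12031, Erfe, Gm28710, Pkp1, Tmprss6, Gm17091, Theg, Gm7745, Pkhd1 and Sohlh1, of which Tmprss6 averaged 1.14 CPM over the series and the rest under 1 CPM.

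Zcwpw1, the histone reader, had 9.37, 7.15, 6.83 and 6.73 CPM in R6/2 N-ZFP libraries, 3.36, 3.68, 3.60 and 3.66 CPM in R6/2 N-Delta libraries, and 9.61, 10.7, 9.34 and 8.62 CPM in NCAR N-Delta libraries. The R6/2 N-ZFP libraries lay above all R6/2 N-Delta libraries, and only library 1 reached into the NCAR N-Delta range. The log2 fold change was -1.47 ± 0.10 (SE) for R6/2 over NCAR with N-Delta and 1.09 ± 0.10 for N-ZFP over N-Delta in R6/2. With the A viruses, R6/2 mice had 3.31 to 4.30 CPM with A-ZFP and 3.18 to 4.22 CPM with A-Delta, against 6.62 to 7.23 CPM in NCAR A-Delta libraries.

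Upb1, the pyrimidine-breakdown enzyme, had 1.95, 1.77, 1.74 and 1.70 CPM in R6/2 N-ZFP, 0.710, 0.522, 0.501 and 0.410 CPM in R6/2 N-Delta, and 3.61, 3.82, 3.73 and 4.06 CPM in NCAR N-Delta libraries. These 3 groups did not overlap. Its log2 fold change was -2.87 ± 0.24 for R6/2 over NCAR with N-Delta and 1.75 ± 0.24 for N-ZFP over N-Delta in R6/2. Under the A viruses Upb1 had 0.359 to 0.430 CPM in R6/2 A-ZFP and 0.386 to 0.677 CPM in R6/2 A-Delta libraries, at a log2 fold change of -0.57 ± 0.28, the one gene of the 7 whose A-ZFP value was the lower.

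Sec14l3 had 1.9, 1.77, 0.578 and 0.638 CPM in R6/2 N-ZFP, 0.266, 0.506, 0.298 and 0.0789 CPM in R6/2 N-Delta, and 3.42, 4.60, 6.03 and 3.35 CPM in NCAR N-Delta libraries. Libraries 1 and 2 of R6/2 N-ZFP were well above libraries 3 and 4, which lay just over the highest R6/2 N-Delta library. The N-ZFP log2 fold change in R6/2 was 2.09 ± 0.40. With A-ZFP it was 1.16 ± 0.41, and the 1.24, 0.833 and 0.479 CPM of R6/2 A-ZFP libraries overlapped the 0.188 to 0.487 CPM of R6/2 A-Delta.

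Vmn2r1, the pheromone receptor gene, had 1.86, 1.54, 1.23 and 1.68 CPM in R6/2 N-ZFP, 0.296, 0.459, 0.329 and 0.379 CPM in R6/2 N-Delta, and 2.69, 1.74, 1.94 and 2.45 CPM in NCAR N-Delta libraries. R6/2 N-ZFP libraries overlapped the low end of NCAR N-Delta and the 1.1 to 1.79 CPM of NCAR N-ZFP libraries. In NCAR mice Vmn2r1 was lower with N-ZFP than with N-Delta, by 0.65 ± 0.18 on the log2 scale. Krt222, the most abundant of the 7, had 39.0 to 48.9 CPM in R6/2 N-ZFP, 21.0 to 23.2 CPM in R6/2 N-Delta, and 48.8 to 60 CPM in NCAR N-Delta libraries. Its R6/2 A-ZFP libraries (22.5 to 26.0 CPM) lay above all R6/2 A-Delta libraries (20.1 to 21.5 CPM), at a log2 fold change of 0.20 ± 0.10.

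Abi3bp, the matrix protein gene, had 5.03, 3.53, 4.38 and 1.63 CPM in R6/2 N-ZFP, 1.08, 1.17, 0.721 and 0.994 CPM in R6/2 N-Delta, and 15.8, 12.4, 15.7 and 19.5 CPM in NCAR N-Delta libraries. In R6/2 A-Delta, library 1 read 2.80 CPM and the others 0.955 to 1.02 CPM. Without that library, the A-ZFP log2 fold change in R6/2 is 1.21 in place of 0.63 ± 0.36.

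Abhd11os, the noncoding gene, had 1.93, 2.37, 3.04 and 1.54 CPM in R6/2 N-ZFP, 0.192, 0.221, 0.0783 and 0.205 CPM in R6/2 N-Delta, and 7.41, 9.72, 10.4 and 7.96 CPM in NCAR N-Delta libraries. The groups were far apart, and the R6/2 N-ZFP libraries stood nearer to R6/2 N-Delta than to NCAR on the CPM scale. Abhd11os showed the widest fold differences of the 7, at -5.70 ± 0.27 for R6/2 over NCAR with N-Delta and 3.66 ± 0.27 for N-ZFP over N-Delta. Abhd11, the hydrolase gene on the opposite strand, differed in the same directions by far less, at 15.6 to 22.6 CPM in R6/2 N-ZFP, 14.3 to 15.97 CPM in R6/2 N-Delta and 20.1 to 24.3 CPM in NCAR N-Delta libraries. With A-ZFP, R6/2 libraries had 0.245, 0.403 and 0.209 CPM of Abhd11os, within the 0.121 to 0.345 CPM of R6/2 A-Delta apart from library 2.

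**Figure D1:**
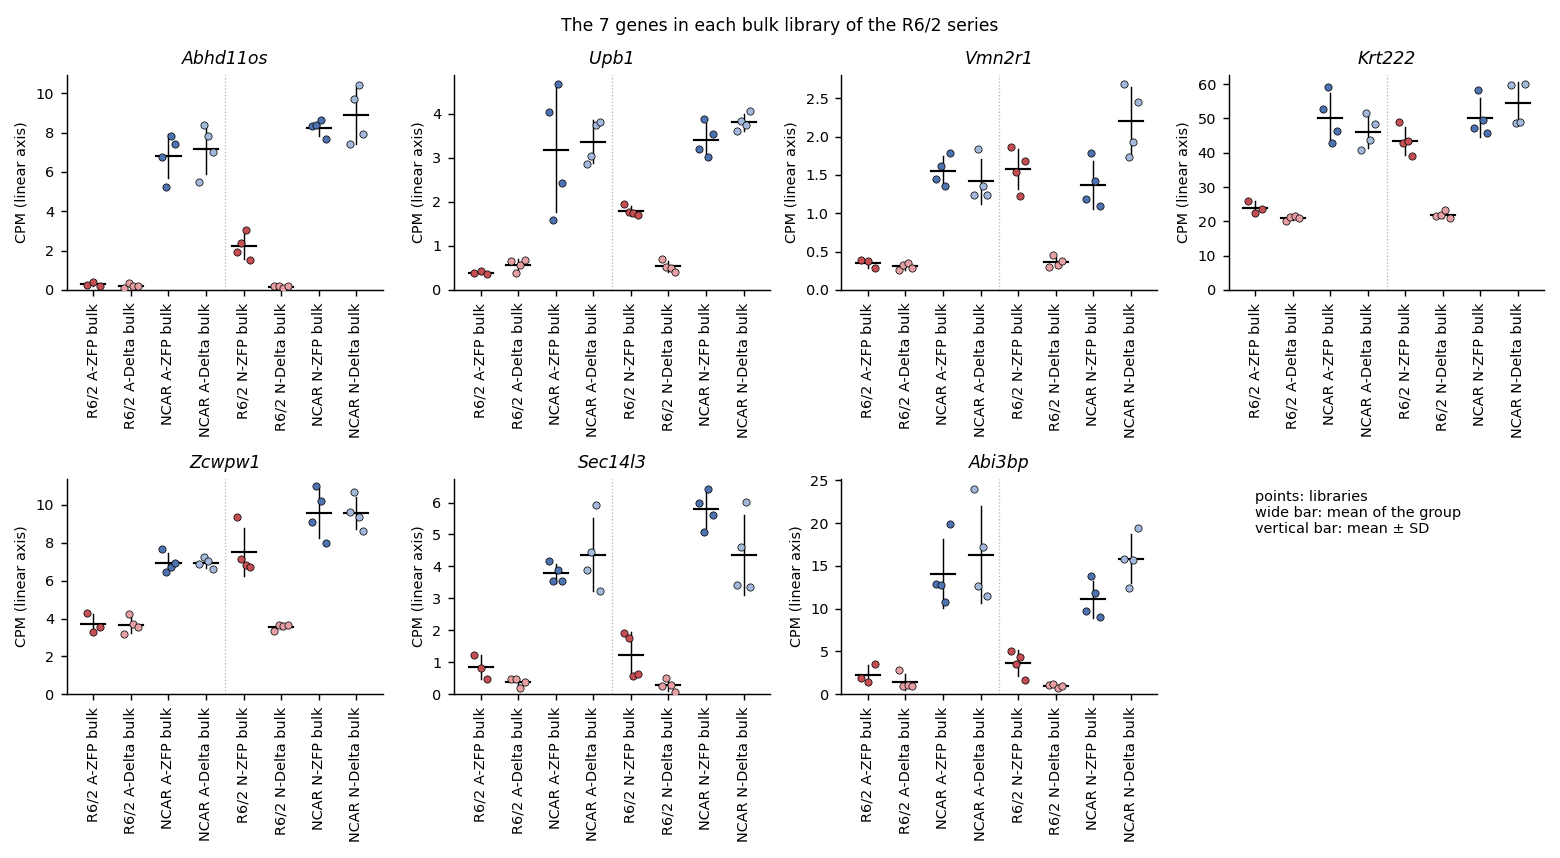
Level of each gene in every bulk library of the R6/2 series, in CPM on linear axes from 0. Points are libraries and bars the group mean ± SD. R6/2 N-ZFP libraries sit above R6/2 N-Delta libraries in every panel, and R6/2 A-ZFP libraries stay below NCAR A-ZFP libraries, with 0.209 to 0.403 CPM for Abhd11os against 5.23 to 7.81 CPM in NCAR A-ZFP.

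R6/2 and NCAR mice given A-ZFP enter none of the comparisons the genes were chosen on, and the genotype difference was tested there. These groups repeat the genotype contrast of the same series. With A-ZFP against A-Delta, edgeR called only 7 of 21752 genes in R6/2 and 4 in NCAR mice. A loss was therefore likely for genes chosen by their loss with the Delta viruses, and the test is no independent support of the choice. All 7 genes fell in R6/2 A-ZFP against NCAR A-ZFP striatum (edgeR quasi-likelihood test, Benjamini-Hochberg adjustment), whereas 12.0% of 21752 genes were called lower. The median log2 fold change of the 7 was -2.29, beside 0.00 for all genes tested. Zcwpw1 had 4.30, 3.31 and 3.55 CPM in R6/2 A-ZFP against 7.65, 6.45, 6.73 and 6.94 CPM in NCAR A-ZFP libraries. Upb1 had 0.389, 0.430 and 0.359 CPM in R6/2 A-ZFP and 4.04, 1.59, 4.67 and 2.43 CPM in NCAR A-ZFP libraries, which were spread wider than in any other NCAR group. No R6/2 A-ZFP library reached an NCAR A-ZFP library for any of the 7 genes, where 11.0% of genes were as far apart in that direction. Abhd11os had the widest gap and fell by 4.71 ± 0.29 (SE) on the log2 scale (adjusted p = 2.2e-11), and had 6.78, 5.23, 7.81 and 7.44 CPM in NCAR A-ZFP libraries. Upb1 fell by 3.16 ± 0.27 (adjusted p = 3.3e-09) and Abi3bp by 2.76 ± 0.37 (adjusted p = 4.4e-06). Sec14l3 fell by 2.29 ± 0.39, Vmn2r1 by 2.28 ± 0.22, Krt222 by 1.21 ± 0.10 and Zcwpw1 by 1.04 ± 0.11, with edgeR adjusted p values of 7.9e-05 or below.

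Of 20 striatal projection neuron markers, 19 fell in the same comparison, and their summed level was 3006 to 3787 CPM in R6/2 A-ZFP against 7393 to 11340 CPM in NCAR A-ZFP libraries. Of 11 interneuron markers 9 fell, with sums of 256 to 260 CPM in R6/2 A-ZFP against 341 to 394 CPM in NCAR A-ZFP libraries. Astrocyte markers summed to 4101 to 4320 CPM in R6/2 A-ZFP against 4786 to 5140 CPM in NCAR A-ZFP libraries, and oligodendrocyte precursor markers to 296 to 341 CPM in R6/2 A-ZFP against 224 to 271 CPM in NCAR A-ZFP libraries. The part of these markers in the result was not tested, and in bulk striatum fewer cells of a type and less RNA per cell cannot be told apart.

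In 12-month zQ175 striatum 6 of the 7 genes fell against WT under N-Delta, in bulk and in neuronal RNA. The exception in both was Vmn2r1. Among all genes, 9.57% of 17114 were called lower in bulk and 6.03% of 15815 in neuronal RNA. Zcwpw1 had 2.97, 4.30, 4.04 and 3.88 CPM in zQ175 N-Delta neuronal against 5.82, 5.62, 5.35 and 4.62 CPM in WT N-Delta neuronal libraries, groups that did not overlap. Of the 7 genes, 6 were that far apart in neuronal and 5 in bulk RNA, against 8.35% and 7.09% of genes. In bulk it had 3.73, 5.36, 5.82 and 3.70 CPM in zQ175 and 6.15, 6.59, 7.49 and 5.34 CPM in WT libraries, with libraries 2 and 3 of zQ175 inside the WT range. The log2 fold change was -0.58 ± 0.17 (edgeR adjusted p = 0.048) in neuronal and -0.54 ± 0.17 (adjusted p = 0.038) in bulk RNA, and each call was lost under other settings. The neuronal call was lost with the replicate block, with DESeq2 and with no filter on low counts (log2 fold changes of -0.58, -0.57 and -0.57), and the bulk call with only those groups fitted (-0.55). Both were lost when single libraries were left out, at an adjusted p of up to 0.14 in neuronal RNA (without WT N-Delta library 1) and 0.13 in bulk RNA (without zQ175 N-Delta library 1).

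Upb1 fell by 2.30 ± 0.19 on the log2 scale in neuronal and 2.16 ± 0.26 in bulk RNA (adjusted p = 1.9e-06 and 6.7e-06). It had 1.19, 1.2, 1.32 and 1.49 CPM in zQ175 N-Delta neuronal libraries, against 6.76, 6.49, 4.98 and 6.01 CPM in WT N-Delta neuronal libraries, with no overlap. Sec14l3 had the widest gap in this model. Its levels were 0.988, 0.6, 1.32 and 1.40 CPM in zQ175 N-Delta neuronal libraries against 8.99, 8.91, 9.15 and 9.23 CPM in WT N-Delta neuronal libraries. In bulk they were 0.840, 0.682, 1.00 and 0.389 CPM in zQ175 against 7.58, 10.02, 6.75 and 8.33 CPM in WT. The log2 fold changes were -3.13 ± 0.26 in neuronal (edgeR adjusted p = 1.9e-06) and -3.55 ± 0.24 in bulk RNA (adjusted p = 5.4e-09).

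Vmn2r1 was near the limit of these shallower libraries, with as few as 2 reads in a library. Its levels were 0.395, 1.1, 0.615 and 0.330 CPM in zQ175 N-Delta neuronal against 0.257, 0.775, 0.997 and 0.522 CPM in WT N-Delta neuronal libraries. In bulk it had 0.746, 0.585, 0.904 and 0.778 CPM in zQ175 and 0.892, 1.53, 0.422 and 0.936 CPM in WT libraries. The groups overlapped in both kinds of RNA, and the log2 fold changes were -0.13 ± 0.50 (edgeR adjusted p = 0.94) in neuronal and -0.42 ± 0.38 (adjusted p = 0.51) in bulk RNA. The standard errors leave room for a sizeable change in either direction in neuronal RNA.

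Krt222 had 27.7 to 36.5 CPM in zQ175 N-Delta neuronal against 41.5 to 45.7 CPM in WT N-Delta neuronal libraries, and 20.1 to 23.5 CPM in zQ175 against 30.6 to 35.6 CPM in WT bulk libraries. Neither pair of groups overlapped, and Krt222 fell by 0.56 ± 0.16 (edgeR adjusted p = 0.041) and 0.62 ± 0.09 (adjusted p = 5.3e-05) on the log2 scale. The neuronal call of Krt222 was lost with no filter on low counts and whichever of the 8 libraries was left out, at an adjusted p of up to 0.14 (without zQ175 N-Delta library 3). Abi3bp had 3.95, 3.9, 3.25 and 5.12 CPM in zQ175 N-Delta neuronal and 25.3, 19.4, 23.8 and 19.8 CPM in WT N-Delta neuronal libraries. It fell by 2.54 ± 0.22 in neuronal RNA (edgeR adjusted p = 2.1e-06) and by 2.21 ± 0.18 in bulk RNA (adjusted p = 6.5e-08). Abhd11os had 0.988, 2.20, 1.84 and 1.07 CPM in zQ175 N-Delta neuronal and 10.4, 9.29, 7.52 and 9.75 CPM in WT N-Delta neuronal libraries. In bulk, zQ175 libraries had 1.21, 0.585, 1.00 and 1.46 CPM and WT libraries 7.49, 7.26, 7.39 and 7.58 CPM. It fell by 2.66 ± 0.22 in neuronal RNA (adjusted p = 1.9e-06) and by 2.87 ± 0.26 in bulk RNA (adjusted p = 2.3e-07).

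The genotype effect in neuronal RNA minus that in bulk RNA lay between -0.30 ± 0.31 for Abi3bp and 0.44 ± 0.39 for Sec14l3 on the log2 scale, and edgeR called none of the 7 (adjusted p = 1.0 for each, none at an unadjusted p under 0.05, and none by DESeq2). Striatal projection neuron markers moved with the genotype here too. Of 20, 19 fell in neuronal and 19 in bulk RNA, and they summed to 10000 to 11100 CPM in zQ175 against 20510 to 24760 CPM in WT N-Delta neuronal libraries, and to 7045 to 7448 CPM in zQ175 against 12970 to 15400 CPM in WT bulk libraries. Their part in the result was not tested.

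**Figure D2:**
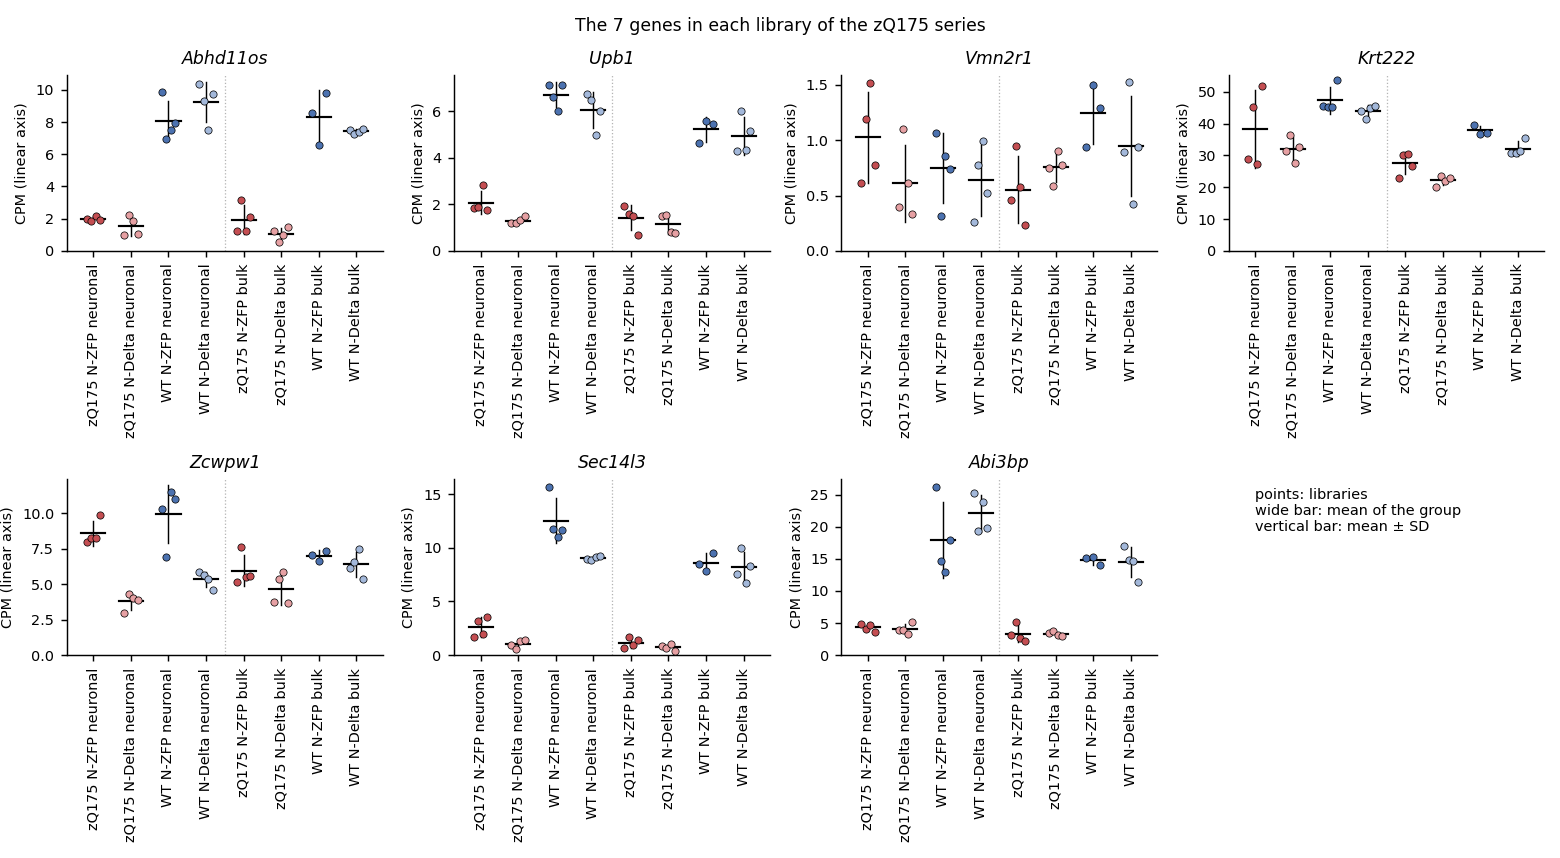
Level of each gene in every library of the zQ175 series, in CPM on linear axes from 0, with neuronal libraries left and bulk libraries right of the dotted line. Points are libraries and bars the group mean ± SD. In 5 panels (all but Vmn2r1 and Zcwpw1) the zQ175 N-Delta libraries lie below all WT N-Delta libraries in both kinds of RNA, as for Sec14l3 with 0.389 to 1.40 CPM against 6.75 to 10.02 CPM.

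In zQ175 mice, few of the 7 genes were called changed by N-ZFP. In bulk RNA edgeR called none of them, and none of the 17114 genes tested (0.0% higher), with 922 genes at an unadjusted p under 0.05, and DESeq2 called none either. Of the 7, 2 had an unadjusted p under 0.05, Krt222 at a log2 fold change of 0.32 ± 0.09 and Abhd11os at 0.87 ± 0.32 (adjusted p = 0.91 for both). The Abhd11os value was 0.52 without zQ175 N-ZFP library 2. Abhd11os had 1.26, 3.17, 1.26 and 2.08 CPM in zQ175 N-ZFP against 1.21, 0.585, 1.00 and 1.46 CPM in zQ175 N-Delta bulk libraries. Libraries 2 and 4 of zQ175 N-ZFP were above the whole N-Delta group and the others inside it.

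In neuronal RNA 1 of the 7 genes, Zcwpw1, rose with N-ZFP in zQ175 mice, where edgeR called 0.133% of 15815 genes higher. It had 7.97, 8.25, 8.24 and 9.88 CPM in zQ175 N-ZFP against 2.97, 4.30, 4.04 and 3.88 CPM in zQ175 N-Delta neuronal libraries, and rose by 1.15 ± 0.17 on the log2 scale (adjusted p = 0.0086). The groups were well apart, as were those of 3 of the 7 genes here, against 4.16% of all genes. WT mice had a difference in the same direction, with 10.2, 6.94, 11.5 and 11.0 CPM in WT N-ZFP against 5.82, 5.62, 5.35 and 4.62 CPM in WT N-Delta neuronal libraries, a log2 fold change of 0.86 ± 0.16 that missed the threshold (adjusted p = 0.054). That WT difference was called by DESeq2 (0.86), with the length index (0.84) and without WT N-ZFP library 2 (0.99), and the zQ175 call was lost with only those groups fitted (1.17, adjusted p = 0.10). The zQ175 effect minus the WT effect was 0.28 ± 0.24 (edgeR adjusted p = 0.75), so a difference between genotypes was not shown. In bulk RNA, Zcwpw1 had 5.16 to 7.60 CPM in zQ175 N-ZFP and 3.70 to 5.82 CPM in zQ175 N-Delta libraries (log2 fold change 0.36 ± 0.18, adjusted p = 0.93).

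Sec14l3 had 1.69, 3.18, 1.95 and 3.58 CPM in zQ175 N-ZFP against 0.988, 0.6, 1.32 and 1.40 CPM in zQ175 N-Delta neuronal libraries, with no overlap and a log2 fold change of 1.28 ± 0.28 (edgeR adjusted p = 0.067). Sec14l3 was called by DESeq2 (1.30), with the replicate block (1.27), with the length index (1.41) and without zQ175 N-ZFP library 2, 3 or 4 (1.16, 1.38 and 1.08), and was at 1.27 (adjusted p = 0.27) with only those groups fitted. In WT mice Sec14l3 had 15.7, 11.8, 11.0 and 11.6 CPM in WT N-ZFP against 8.99, 8.91, 9.15 and 9.23 CPM in WT N-Delta neuronal libraries, also with no overlap (0.44 ± 0.21, edgeR adjusted p = 0.82). Its zQ175 effect minus the WT effect was 0.83 ± 0.35 (edgeR adjusted p = 0.75), so a difference between genotypes was not shown for Sec14l3 either. Upb1 did not overlap either, with 1.84, 1.89, 2.82 and 1.74 CPM in zQ175 N-ZFP against 1.19 to 1.49 CPM in zQ175 N-Delta (0.60 ± 0.21, adjusted p = 0.15). The other 4 genes overlapped, with log2 fold changes of 0.66 ± 0.50 for Vmn2r1, 0.33 ± 0.25 for Abhd11os, 0.26 ± 0.17 for Krt222 and 0.05 ± 0.25 for Abi3bp. Krt222 split within the group, at 28.8 and 27.3 CPM in zQ175 N-ZFP libraries 1 and 3 and 45.2 and 52.0 CPM in libraries 2 and 4, against 27.7 to 36.5 CPM in zQ175 N-Delta. Libraries 1 and 3 are those with the high mitochondrial share. Summed ependymal and choroid markers were at 64.3 to 356 CPM in zQ175 N-ZFP against 40.5 to 55.9 CPM in zQ175 N-Delta neuronal libraries, and cortical excitatory neuron markers at 148.5 to 217.5 CPM in zQ175 N-ZFP against 236 to 340 CPM in zQ175 N-Delta libraries, both without overlap. Microglial markers were at 27.2 to 105 CPM in zQ175 N-ZFP against 22.1 to 29.5 CPM in zQ175 N-Delta, and oligodendrocyte markers at 2589 to 5966 CPM in zQ175 N-ZFP against 2366 to 3521 CPM in zQ175 N-Delta libraries. No tested marker of these lists was called by edgeR, and their part in the result was not tested. Libraries 1 and 3 of both N-ZFP neuronal groups were also left out, an omission chosen after seeing the data. It leaves only libraries 2 and 4 of each group and takes out the low Krt222 values of zQ175 N-ZFP. A larger Krt222 fold change was therefore fixed by the omission and is no support for a rise. With it, 3 of the 7 genes rose in zQ175 neuronal RNA: Zcwpw1 by 1.22, Sec14l3 by 1.59 and Krt222 by 0.60 on the log2 scale. Among all genes, edgeR called 108 of 15917 higher in that fit.

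With N-ZFP given to both genotypes, 5 of the 7 genes fell in zQ175 against WT bulk RNA (8.23% of genes were called lower) and 4 in neuronal RNA (5.29%). Abhd11os, Upb1, Sec14l3 and Abi3bp fell in both, with log2 fold changes from -2.30 ± 0.23 to -1.82 ± 0.19 in neuronal RNA and adjusted p values of 3.6e-05. Krt222 fell in bulk RNA, at -0.57 ± 0.09 (edgeR adjusted p = 0.00023), and was at -0.38 ± 0.16 (adjusted p = 0.15) in neuronal RNA, where it was called with the length index (-0.35, adjusted p = 0.012) and without zQ175 N-ZFP library 4 (-0.56, adjusted p = 0.028), and was at -0.11 without libraries 1 and 3 of both N-ZFP neuronal groups. That omission, chosen after seeing the data, takes out the zQ175 N-ZFP libraries with the low Krt222 values. Zcwpw1 was at -0.29 ± 0.16 in neuronal and -0.34 ± 0.18 in bulk RNA (adjusted p = 0.24 and 0.25). Vmn2r1 was at 0.31 ± 0.48 in neuronal (adjusted p = 0.67) and -1.24 ± 0.43 in bulk RNA (adjusted p = 0.063), where it was called with the replicate block (-1.43, adjusted p = 0.048), with the length index (-1.41) and without zQ175 N-ZFP library 2 (-1.63).

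**Figure D3:**
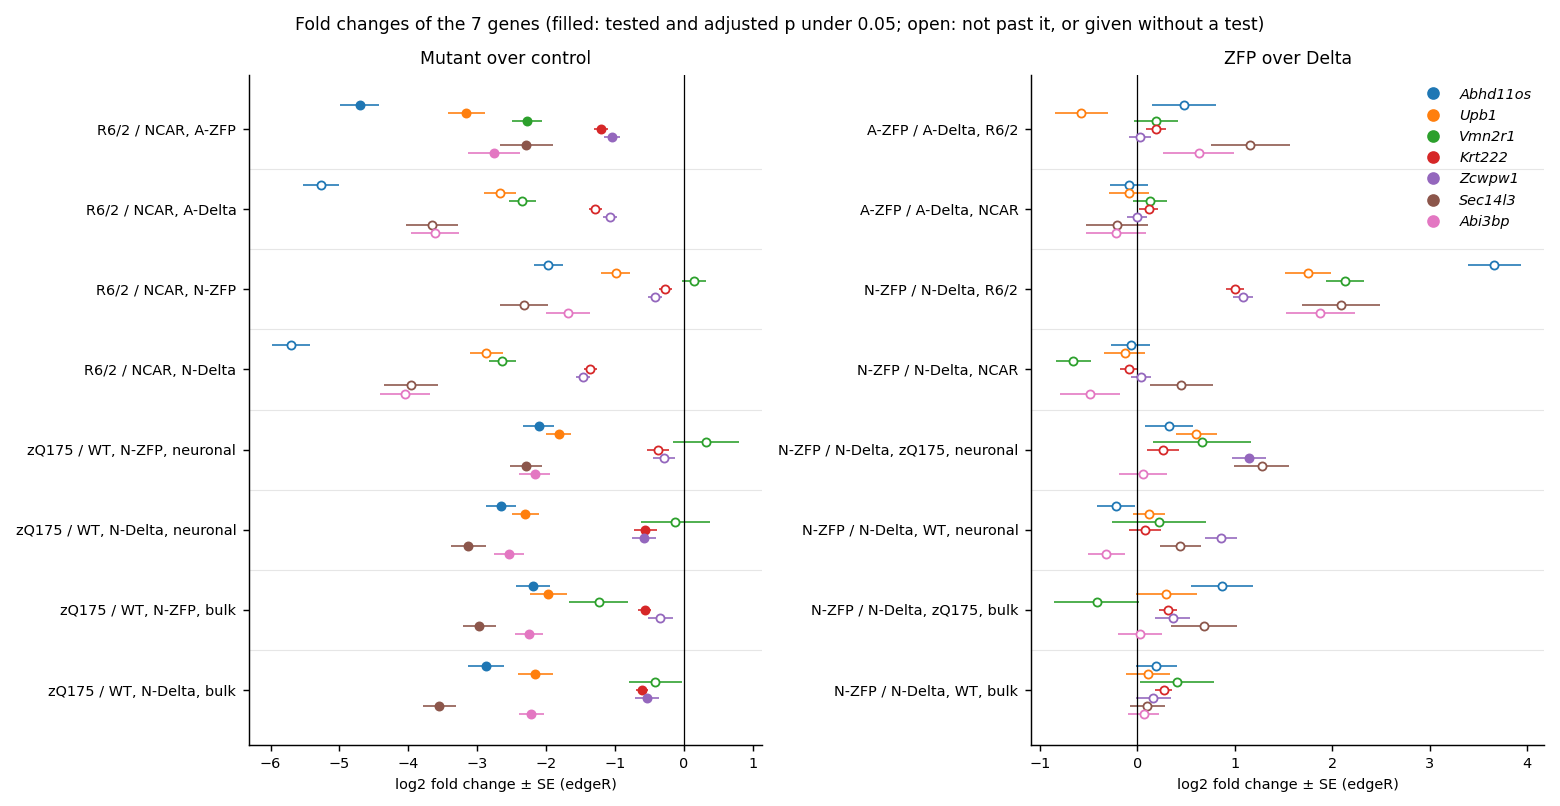
Log2 fold change ± SE of each gene for mutant over control mice (left) and ZFP over Delta virus (right), from edgeR. Filled points passed an adjusted p of 0.05 in a test, and open points did not or are given without a test because the genes were chosen on those libraries. In the right panel all 7 genes lie at 1.00 or above for N-ZFP in R6/2, whereas in zQ175 bulk RNA they lie between -0.42 and 0.87.

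With N-ZFP given to both R6/2 and NCAR mice, the R6/2 libraries are among those the genes were chosen on, so the difference is a description. The log2 fold changes for R6/2 over NCAR were -2.32 ± 0.34 for Sec14l3, -1.97 ± 0.21 for Abhd11os, -1.69 ± 0.32 for Abi3bp, -0.99 ± 0.22 for Upb1, -0.42 ± 0.10 for Zcwpw1, -0.27 ± 0.09 for Krt222 and 0.15 ± 0.18 for Vmn2r1.

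The share of the loss that the ZFP virus covered differed between genes and between models. It is given as the distance from the mutant Delta mean to the mutant ZFP mean, in percent of the distance to the control Delta mean in CPM, with the SD over ZFP libraries. This SD leaves out the spread of the mutant and control Delta libraries, so it understates the uncertainty of a share. The R6/2 values describe libraries on which the genes were chosen. In R6/2 with N-ZFP it was 66.4% ± 12.6 for Krt222, 66.0% ± 14.5 for Vmn2r1, 65.9% ± 20.9 for Zcwpw1 and 38.3% ± 3.38 for Upb1. It was lower for Abhd11os (23.5% ± 7.39), Sec14l3 (23.0% ± 17.5) and Abi3bp (17.9% ± 9.97). The control in these shares is NCAR N-Delta, the group with the lowest length index of the R6/2 series. In percent of the NCAR N-ZFP mean, R6/2 N-ZFP was at 115% for Vmn2r1, 86.6% for Krt222, 78.5% for Zcwpw1 and 52.4% for Upb1. For Abi3bp, Abhd11os and Sec14l3 it was at 32.75%, 26.9% and 21.1%. The NCAR N-ZFP mean itself was at 62.3% of the NCAR N-Delta mean for Vmn2r1, 70.2% for Abi3bp and 132.9% for Sec14l3. For the other genes it was at 89.6% to 100.2%. Against NCAR N-Delta, R6/2 N-ZFP was at 71.6% for Vmn2r1. The shares depend on the scale. On the log2 scale they were 81.6% for Vmn2r1, 75.5% for Krt222, 74.9% for Zcwpw1, 64.8% for Abhd11os, 61.8% for Upb1, 51.9% for Sec14l3 and 44.5% for Abi3bp.

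With A-ZFP in R6/2 the share was -6.56% ± 1.29 for Upb1, 12.2% ± 7.09 for Krt222 and 11.7% ± 9.56 for Sec14l3. It was 0.974% ± 1.48 for Abhd11os, 5.72% ± 7.18 for Abi3bp, 3.89% ± 5.14 for Vmn2r1 and 1.59% ± 15.8 for Zcwpw1, each with a spread wider than the value. On the log2 scale the shares were -20.3% for Upb1, 17.2% for Krt222 and 31.8% for Sec14l3. They were 8.50% for Abhd11os, 20.4% for Abi3bp, 8.465% for Vmn2r1 and 2.03% for Zcwpw1. In zQ175 with N-ZFP, Zcwpw1 covered 308% ± 56.2 in neuronal RNA, above the WT N-Delta level, since it reached 160% of that level there while WT N-ZFP mice reached 185%. In zQ175 bulk RNA the share was 74.6% ± 63.7 for Zcwpw1, 54.8% ± 35.9 for Krt222, 13.8% ± 14.2 for Abhd11os, 7.16% ± 14.0 for Upb1, 5.93% ± 6.06 for Sec14l3 and 0.324% ± 11.6 for Abi3bp. For the last 4 the spread was wider than the value. Sec14l3 covered 19.1% ± 11.6, Upb1 16.3% ± 10.5, Abhd11os 6.10% ± 1.59 and Abi3bp 1.55% ± 3.44 in zQ175 neuronal RNA, and Krt222 was at 52.4% ± 101.8 there, a spread wider than its value. The Abhd11os share is no clear recovery, since its zQ175 N-ZFP neuronal libraries (1.89 to 2.17 CPM) lay inside the zQ175 N-Delta range (0.988 to 2.20 CPM). On the log2 scale the neuronal shares were 236% for Zcwpw1, 45.1% for Krt222, 40.5% for Sec14l3, 29.5% for Upb1, 17.6% for Abhd11os and 4.22% for Abi3bp. In bulk RNA they were 77.1% for Zcwpw1, 58.1% for Krt222, 28.95% for Abhd11os, 19.15% for Sec14l3, 13.1% for Upb1 and -2.48% for Abi3bp. No share is given for Vmn2r1 in zQ175 mice, where no loss was called.

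**Figure D4:**
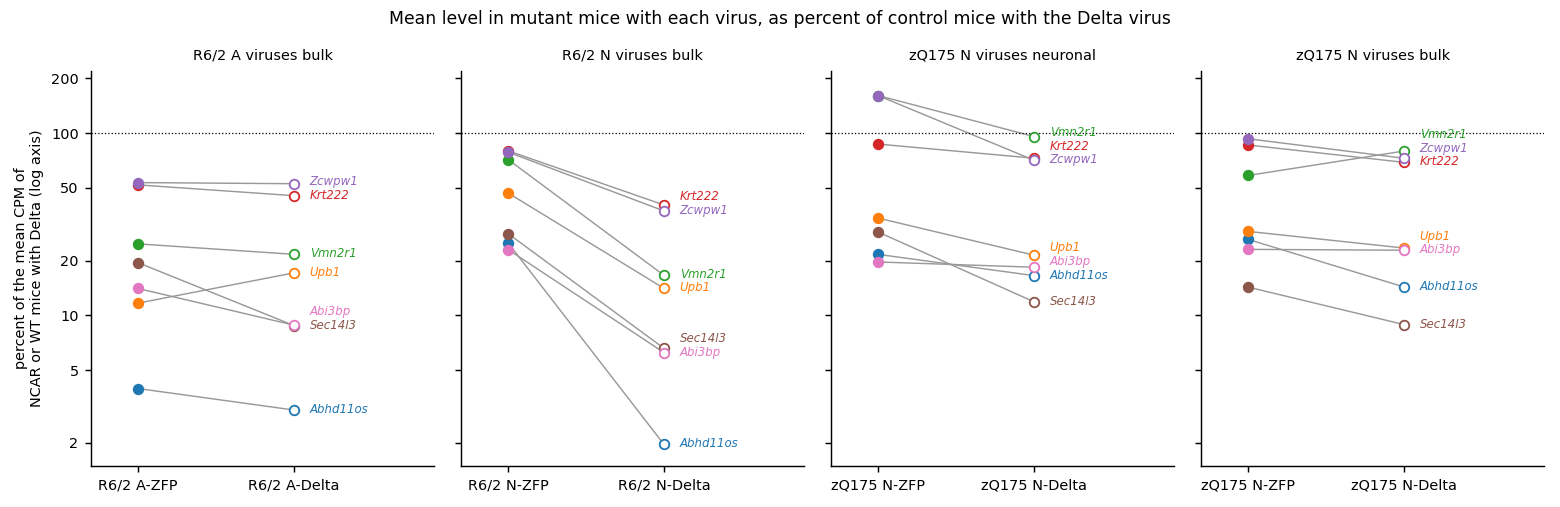
Mean level in mutant mice with the ZFP virus (left point of each pair) and the Delta virus (right point), in percent of the mean in control mice with the Delta virus, on a log axis. Lines join the 2 means of a gene. With N viruses in R6/2 every ZFP point is above its Delta point, as for Abhd11os at 24.99% with N-ZFP against 1.96% with N-Delta, while with A viruses Abhd11os is at 3.98% with A-ZFP and 3.03% with A-Delta.

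Between WT neuronal and bulk libraries, 2 of the 7 genes were called higher in neuronal RNA and none lower. This is close to the background, since 26.3% of 17702 genes were called higher and 29.6% lower. Krt222 was higher at 41.5 to 45.7 CPM in WT N-Delta neuronal against 30.6 to 35.6 CPM in WT N-Delta bulk libraries (log2 fold change 0.54 ± 0.15, edgeR adjusted p = 0.0026), and Abi3bp at 19.4 to 25.3 CPM against 11.3 to 17.0 CPM (0.69 ± 0.19, adjusted p = 0.0027). With the replicate number as a block, the same pair was called, while Abhd11os was also called with only those groups fitted (0.36, adjusted p = 0.026) and Sec14l3 with the length index (0.52, adjusted p = 0.026). Of 20 projection neuron markers 18 were higher in neuronal RNA, with a median log2 fold change of 0.77. Abhd11os (0.40 ± 0.21) and Upb1 (0.38 ± 0.20) missed the threshold at an adjusted p of 0.10, and Sec14l3, Zcwpw1 and Vmn2r1 had values of 0.23 ± 0.20, -0.17 ± 0.17 and -0.50 ± 0.43. All 10 microglial and all 10 oligodendrocyte markers were lower.

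Across the groups of the R6/2 series, the order that most of the 7 genes shared was NCAR above R6/2, on which they were chosen. Within the NCAR groups the order differed between genes. The highest NCAR mean was that of N-Delta for Abhd11os, N-ZFP for Sec14l3 and A-Delta for Abi3bp. The NCAR groups had higher means than every R6/2 group for Abhd11os, Upb1, Krt222, Sec14l3 and Abi3bp, with neighbouring NCAR groups overlapping. For Vmn2r1 the R6/2 N-ZFP mean (1.58 CPM) came between the NCAR N-Delta mean (2.20 CPM) and the NCAR A-ZFP mean (1.55 CPM), and for Zcwpw1 (7.52 CPM) between the N-virus NCAR means (9.56 and 9.58 CPM) and the A-virus NCAR means (6.94 CPM). R6/2 N-ZFP came next to the NCAR groups for the others and overlapped R6/2 A-ZFP for Sec14l3 and Abi3bp. Per kilobase of exon, NCAR A-Delta striatum held 14.0 CPM of Krt222 and 10.3 CPM of Abhd11os, against 0.206 CPM of Vmn2r1.

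Some relatives of the 7 genes were called, in both directions in several lists. Over all genes, 12.0% were called lower and 10.2% higher in R6/2 with A-ZFP, 6.03% and 3.33% in zQ175 neuronal RNA, and 9.57% and 6.44% in zQ175 bulk RNA. The lists were drawn up with earlier results of these data known, and their counts are for R6/2 over NCAR with A-ZFP and for zQ175 over WT with N-Delta. Among 12 other genes of pyrimidine and beta-alanine breakdown, none rose. Aldh6a1, which degrades malonate semialdehyde from this route, fell in R6/2 (-0.35, adjusted p = 0.0018), and the taurine and beta-alanine transporter gene Slc6a6 fell in zQ175 neuronal and bulk RNA (-0.33 and -0.40). Of 17 other genes on a SEC14 and CRAL-TRIO list, which also took in Tmed3, 5 fell and 2 rose in R6/2. In zQ175 mice 3 fell in neuronal RNA, and 2 fell and 1 rose in bulk RNA. Sec14l1 fell in all 3, by 1.22 ± 0.16 in R6/2 (edgeR adjusted p = 2.5e-06), 0.72 ± 0.12 in zQ175 neuronal (adjusted p = 0.0012) and 0.58 ± 0.06 in zQ175 bulk RNA (adjusted p = 2.9e-06).

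Of 49 keratin genes 13 could be tested in the R6/2 series, of which 5 fell and 1 rose. Krt9 and Krt10, keratins of the epidermis, fell in all 3 comparisons, Krt10 by 0.80 ± 0.14 in R6/2 (edgeR adjusted p = 0.00013), 0.84 ± 0.16 in zQ175 neuronal (adjusted p = 0.0026) and 0.73 ± 0.09 in zQ175 bulk RNA (adjusted p = 1.4e-05). In the list of 22 matrix and ABI genes 7 fell in R6/2 and 7 in zQ175 bulk RNA, while none of 20 was called in neuronal RNA. Abi1 and Abi2, adaptors of actin regulation, fell by 0.38 and 0.42 in R6/2 and by 0.25 each in zQ175 bulk RNA. Of 21 genes of meiotic break repair and related readers, 17 were tested in R6/2, of which Sycp2 and Morc2b fell and Morc4 and Mlh3 rose, and Sycp2 (-0.90), Morc2b (-0.84) and Morc4 (0.50) were also called in zQ175 bulk RNA. Only 9 of the 123 vomeronasal receptor and signalling genes could be tested in R6/2, where Gnai2, a G protein subunit gene, rose by 0.36. Among 21 Abhd genes, Abhd6 fell and Abhd14b rose in R6/2, Abhd2 fell in zQ175 neuronal RNA and none was called in bulk RNA.

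Genes near the 7 were called in both directions. Within 100 kb lie 64 other genes, of which 38 were tested in the R6/2 series and 28 in each kind of RNA of the zQ175 series. For R6/2 over NCAR with A-ZFP, 3 fell and 8 rose, where 12.0% of all genes were called lower and 10.2% higher, and their median log2 fold change was 0.14. For zQ175 over WT, 3 fell and 1 rose in neuronal RNA, where 6.03% of all genes were called lower and 3.33% higher. In bulk RNA 2 fell and 1 rose, where 9.57% of all genes were called lower and 6.44% higher. The neighbour that fell most was Adora2a, the adenosine receptor gene of indirect-pathway projection neurons, 66331 bases from Upb1, by 1.95 ± 0.30 in R6/2, 1.57 ± 0.16 in zQ175 neuronal and 1.26 ± 0.09 in zQ175 bulk RNA (edgeR adjusted p = 2.2e-05, 1.2e-05 and 8.1e-09). Next to Sec14l3, its paralog Sec14l2 fell by 0.62 ± 0.08 in R6/2 and by 0.33 ± 0.10 in zQ175 neuronal RNA (adjusted p = 9.0e-07 and 0.039), and because they are paralogs some reads could be shared. Smarce1, 1744 bases from Krt222, rose by 0.39 ± 0.06 in R6/2 (adjusted p = 3.9e-05), opposite to Krt222. Tfg, 197 bases from Abi3bp, rose by 0.36 ± 0.09 (adjusted p = 0.0046). Abhd11 was at -0.17 ± 0.09 in R6/2 with A-ZFP (adjusted p = 0.17) and at -0.19 ± 0.16 and -0.04 ± 0.11 in zQ175 neuronal and bulk RNA (adjusted p = 0.59 and 0.87), against the called losses of Abhd11os. Gucd1 and Pilra, which overlap Upb1 and Zcwpw1, were at -0.11 ± 0.08 and 0.15 ± 0.31 in R6/2 with A-ZFP (adjusted p = 0.37 and 0.81).

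**Figure D5:**
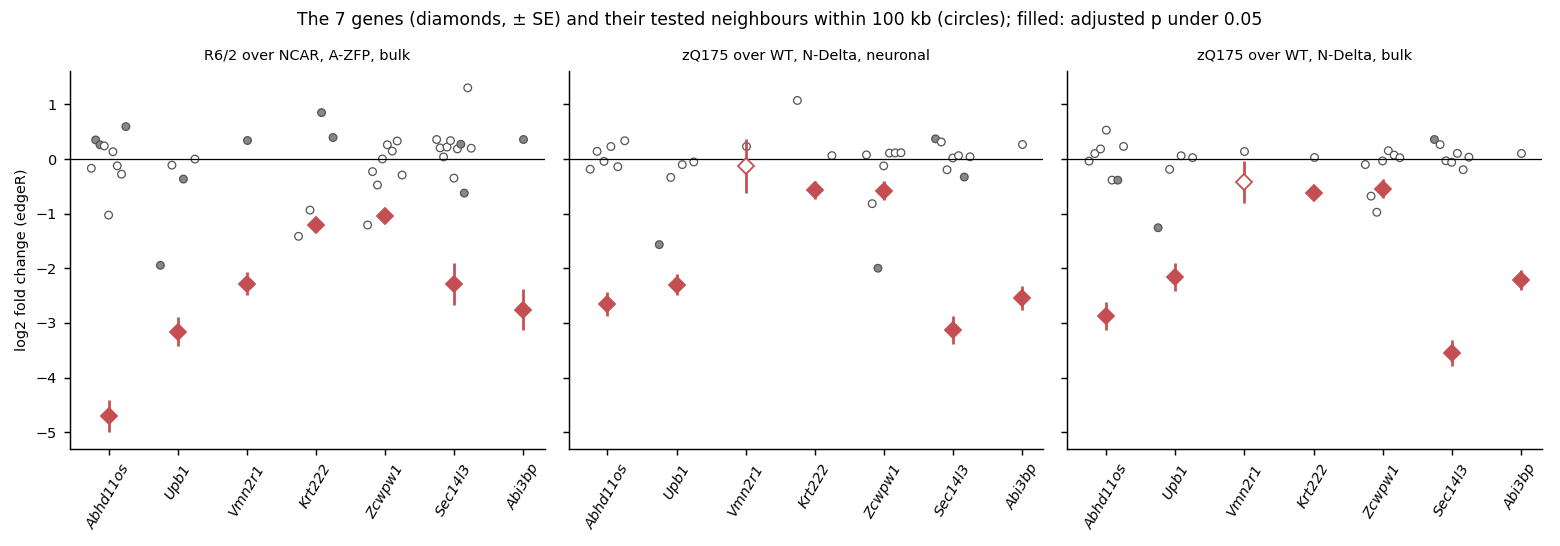
Log2 fold change of each gene (diamonds, ± SE) and of its tested neighbours within 100 kb (circles) for R6/2 over NCAR with A-ZFP and zQ175 over WT with N-Delta. Filled symbols passed an adjusted p of 0.05. Most circles lie near 0 while the diamonds reach their lowest for Abhd11os in R6/2, and Adora2a is the low circle at Upb1, at -1.95, -1.57 and -1.26.

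Over the 31 R6/2-series libraries the 7 genes correlated with each other at Pearson r of 0.82 (Vmn2r1 and Sec14l3) to 0.967 (Vmn2r1 and Krt222) on log2 CPM. These libraries share the group structure the genes were chosen on. With group means removed the r values ran from -0.271 to 0.508. The genes most like each member were ranked among those with a mean of at least 2 CPM, with predicted genes (Gm and Rik names) left out. The first 3 were Ssbp2, Ppp1r1a and Camk2n1 for Abhd11os (r = 0.984, 0.982 and 0.978) and Cdc42ep3, Car11 and Anks1b for Upb1 (0.976, 0.972 and 0.97). For Krt222 they were Gpcpd1, Chn1 and Ppp1r1a, and for Vmn2r1 Krt222, Ccl25 and Prmt9. Zcwpw1 was nearest to Clec12a, Rad52 and Krt222, Sec14l3 to Samd1, Ier5l and N4bp3, and Abi3bp to Sept5, Fdft1 and Ldhd (r = 0.947, 0.943 and 0.942). The zQ175 values of these genes were not used in that ranking. Ppp1r1a, a phosphatase inhibitor gene, fell there by 0.95 ± 0.08 in neuronal and 0.81 ± 0.09 in bulk RNA (edgeR adjusted p = 1.9e-06 and 2.3e-06), and Clec12a, a C-type lectin gene, by 2.19 ± 0.28 and 1.80 ± 0.21 (adjusted p = 9.9e-05 and 5.5e-06). Ssbp2, first for Abhd11os in that ranking, was at 0.10 ± 0.07 and -0.02 ± 0.06 (adjusted p = 0.54 and 0.85).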

How the data were processed

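The 62 libraries, in 16 groups, were made from total RNA of striatum. The authors deposited 1 table of raw read counts per gene for 48795 genes, aligned to mm10 with STAR and counted with HTSeq, per the submitters' processing notes; versions and the strand setting are not given in the sources used here. CPM printed here is a gene's share of the library's counts on the usual scale, without TMM. Log2 fold changes, SE and adjusted p values came from edgeR 4.0.16 (R 4.3.3; TMM, filterByExpr, quasi-likelihood F test, Benjamini-Hochberg over all genes tested, threshold 0.05), fitted separately for the R6/2 series, zQ175-series bulk and neuronal libraries, and jointly for comparisons of the last 2. SE is the fold change over the square root of F. DESeq2 1.42.0 was an alternative. The other alternatives were no filter on low counts, a transcript length index as covariate, the replicate number as a block, only the groups compared, and leaving out each library. Of the 20 comparisons, 13 were tested for the 7 genes, and 7 are descriptions because the genes were chosen on those libraries or comparisons that share them. The 7 genes and all lists were chosen with earlier results of these data known. The genes named beside the 7 are, per list, those of smallest p or called in zQ175 mice, called neighbours, overlapping genes, and the 3 most alike. By the correlation of their deviations, same-numbered libraries were most alike in zQ175 over WT with N-ZFP in neuronal RNA, where all 4 lay between 0.228 and 0.687. Libraries 1 and 3 of both these groups are those with the high mitochondrial share. No cut was set for pairing, and these correlations were also all positive for N-ZFP over N-Delta in WT bulk RNA (0.0413 to 0.216). That likeness comes from the data, not from a label, and the main fit does not use it. Whether same-numbered bulk and neuronal libraries came from 1 animal is not stated in the labels used here. Between WT N-Delta neuronal and bulk libraries the correlations were 0.0370 to 0.263, and the fit with the number as a block called 4680 genes higher and 5276 lower, against 4652 and 5237 without it. On simulated counts, genes drawn at random from those tested were changed by known folds. Of those changed by 1 on the log2 scale, edgeR called 69.7% for R6/2 over NCAR with A-ZFP. For zQ175 over WT it called 84.85% in bulk and 71% in neuronal RNA. These rates are over random genes and do not give the rate for genes of few reads such as Vmn2r1. Python 3.11.15, pandas 2.3.3, numpy 2.4.6 and matplotlib 3.10.9 were used. One gene of the lists is not reported here.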

Additional observations from a re-analysis of the deposited data

Results flagged for a closer look

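In 8 of 98 groups of 4 libraries, 1 library lay far from the other 3 for a gene, where chance gives about 1 in 20. Each was the highest of its group. Zcwpw1 read 9.37 CPM in R6/2 N-ZFP bulk library 1, 7.6 CPM in zQ175 N-ZFP bulk library 2 and 9.88 CPM in zQ175 N-ZFP neuronal library 4. Upb1 read 2.82 CPM in zQ175 N-ZFP neuronal library 3, and Sec14l3 15.7 CPM in WT N-ZFP neuronal library 1. Krt222 read 53.8 CPM in WT N-ZFP neuronal library 4 and 35.6 CPM in WT N-Delta bulk library 4. Abi3bp read 2.8 CPM in R6/2 A-Delta bulk library 1. None of 21 tests of a difference between effects was called.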

How the results depend on the processing

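Of the fold changes of the 7 genes recomputed in tested comparisons, 1257 kept direction and side of the threshold, 26 lost the call, 19 gained it and 29 changed sign, none of those called. For N-ZFP over N-Delta in zQ175 neuronal RNA, edgeR called 52 genes and 1 of the 7, against 143 genes with no filter, 97 and 3 of the 7 with the length index, 1253 and 2 with the replicate block, 1911 and 2 by DESeq2, 7 and 0 with only those groups, and 180 and 3 without libraries 1 and 3 (chosen after seeing the data). Leaving out 1 library gave 17 to 4348 genes and 1 to 2 of the 7, the most without zQ175 N-ZFP library 2 (4348) or 4 (3431). In WT neuronal RNA the 20 genes became 117 (length index, 1 of the 7), 33 (block), 78 (DESeq2, 1 of the 7), 55 (without libraries 1 and 3) and 9 to 40 with 1 library left out (0 to 1 of the 7). In bulk RNA the 0 genes became 41 (no filter), 1 (length index) and 0 to 1 (1 left out) in zQ175, and 73, 297, 23 (DESeq2), 1 (those groups only) and 0 to 1 in WT. For zQ175 over WT in neuronal RNA, the 1480 genes with N-Delta became 968 (no filter), 3033 (length index), 3492 (those groups only) and 888 to 1178 (1 left out), and the 1417 with N-ZFP became 921, 3344, 180, 616 (without libraries 1 and 3) and 616 to 3577. The block gave 1960 there. Differences between effects went from 0 genes to 12 (N-ZFP, bulk, no filter), 2 and 1 (N-ZFP, neuronal, length index and DESeq2), and 7, 4 and 0 to 4 (genotype, neuronal minus bulk, DESeq2, those groups only, 1 left out). Within 50 kb, 1 neighbour fell in R6/2 over NCAR with A-ZFP and in zQ175 over WT with N-Delta in each kind of RNA, and 7 of the 21 places among the most alike genes remained with Spearman's rho. Of the shares of the loss covered, 15 moved beyond their SD on the log2 scale and 11 did not. The causes were not tested.

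Sign changes beside the log2 fold changes in the report were these. Abi3bp with N-ZFP in zQ175 was -0.0114 in bulk RNA with the length index, and in neuronal RNA -0.0213 with no filter and -0.10 without libraries 1 and 3, and Vmn2r1 in WT neuronal RNA was -0.25 without them. With 1 library left out, Abi3bp with N-ZFP ran from -0.27 to 0.20 in zQ175 bulk, -0.0635 to 0.20 in zQ175 neuronal and -0.0428 to 0.17 in WT bulk RNA, and its zQ175 minus WT effect in bulk from -0.33 to 0.14. That effect for Krt222 ran from -0.00033 to 0.14 in bulk and -0.000985 to 0.32 in neuronal RNA. Vmn2r1 ran from -0.57 to 0.17 for zQ175 over WT and -0.0405 to 0.52 for N-ZFP in WT neuronal RNA. The genotype effect in neuronal minus bulk RNA ran from -0.31 to 0.0170 for Upb1, -0.13 to 0.56 for Vmn2r1, -0.0095 to 0.10 for Krt222 and -0.14 to 0.0720 for Zcwpw1. Depth limits Vmn2r1 most, with 2 reads in its lowest zQ175-series libraries.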
